A study of Mus musculus with 6 samples.

Results

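Interferon-stimulated genes, 41 of the 24346 genes in the deposited expression table, were followed in mouse livers 24 hours after acute injury with carbon tetrachloride (CCl4). The 41 genes are textbook targets of type I interferon or interferon gamma, listed by name with earlier results of these data known, and all 41 were found in the table. They comprise 12 interferon-gamma-type GTPases, 11 type I genes of the *Ifit*, *Oas*, *Mx* and *Isg15* families, 6 regulators, 3 sensors and 9 other effectors. RNA came from whole livers of 6 male C57/BL6 mice, 3 with the genotype label wt (the floxed *med23*f/f controls of the study) and 3 with the label med23 ko (*med23*Δli). All 6 were 8 weeks old and had received CCl4 at 0.6 μl per g body weight, in sunflower oil, as an intraperitoneal injection. The *med23*Δli mice came from a cross of floxed mice with *Albumin*-cre mice. The study describes them as lacking *Med23*, a subunit of the Mediator complex, specifically in hepatocytes. The series holds no uninjured liver among the samples used here, so the values describe injured livers of both genotypes.

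Interferons are secreted signals that switch on an antiviral and antibacterial programme in cells that bind them. Type I interferons act through the receptor chains IFNAR1 and IFNAR2 and the kinases JAK1 and TYK2, and lead to a complex with STAT2 and IRF9 that binds the interferon-stimulated response element (ISRE). Interferon gamma, made mainly by NK and T cells, acts through IFNGR1 and IFNGR2 and the kinases JAK1 and JAK2, and leads to transcription through the gamma-activated sequence (GAS). The guanylate-binding proteins and the immunity-related GTPases respond strongly to interferon gamma and attack the vacuoles of intracellular microbes, whereas the IFIT, OAS and MX proteins and ISG15 are antiviral effectors best known from the type I response. Many of these genes respond to both kinds of interferon, so the classes are conventional and not exclusive.

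Expression was given in FPKM, which scales fragments to the length of the transcript and the size of the library, and the read counts behind the values are not in the table. The study's methods give a median read number over its samples, but the depth of each single library is unknown. Values were taken as log2(FPKM + 0.1), and the genes that averaged 0.5 FPKM or more (11956 genes, 35 of the 41 members) entered a limma fit of the genotypes. A gene was called up-regulated or down-regulated at an adjusted p under 0.05 (Benjamini-Hochberg over all genes tested). Every called gene also passes an unadjusted p under 0.05. At that level the share of all genes is therefore at least 11.6% up and 9.48% down, and its exact value is not given here. Fold changes on the log2(FPKM + 0.1) scale understate the change of genes with low values. Each library is 1 mouse, and for single genes an exact two-sided permutation test of 3 livers against 3 cannot give a p below 0.1. *Med23* itself did not tell the groups apart, with 2.97 to 4.14 FPKM in the controls and 2.91 to 3.40 FPKM in the *med23*Δli livers (log2 fold change −0.11, adjusted p = 0.685 from limma). This value covers all exons and all liver cells and does not check the labels, from which the groups were taken. *med23*Δli replicate 2 stood apart from the other 5 livers in that it held 5.65 FPKM of *Adipoq*, 2.29 FPKM of *Ucp1* and 1.51 FPKM of *Adrb3*, 3 adipocyte genes whose highest value elsewhere was 0.320 FPKM. These 3 genes were added to the lists after earlier results of these data were known. In whole-liver RNA, fewer cells of a type and less RNA per cell cannot be told apart.

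The letters of the response elements were looked up in the promoters of the members, from 250 bases before to 50 bases after the transcription start (RefSeq, GRCm38.p6, the assembly of mm10). A promoter was found for 30 of the 41 members, and the 11 without one are *Zbp1*, *Gbp4*, *Gbp9*, *Mx1*, *Parp14*, *Mx2*, *Gbp6*, *Oas2*, *Usp18*, *Rtp4* and *Iigp1*. The core of the ISRE, GAAANNGAAA on either strand, was present in 20 of 30 promoters (66.7%), compared with 3.99% of the 27025 promoters of all genes. It was found in 8 of 8 GTPase promoters, 5 of 8 type I promoters, 1 of 5 promoters of regulators, 2 of 2 of sensors and 4 of 7 of other effectors. The core of the GAS, TTCNNNGAA, which reads the same on both strands, was present in 12 of 30 (40%), compared with 9.55% of all promoters, and in 5 of 8 GTPase promoters but 2 of 8 type I promoters. The stretches below carry the ISRE core of members whose levels are described next, 50 bases each on the strand of the gene, with every match to the ISRE core or its reverse complement in capitals. They are shown so that the up-regulated *Rsad2*, the down-regulated *Stat2* and genes of both classes that did not pass the test can be compared by sequence.
Rsad2: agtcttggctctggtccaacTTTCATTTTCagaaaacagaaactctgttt
Stat2: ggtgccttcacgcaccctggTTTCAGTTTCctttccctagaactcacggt
Isg15: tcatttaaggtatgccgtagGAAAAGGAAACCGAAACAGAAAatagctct
Ifit1: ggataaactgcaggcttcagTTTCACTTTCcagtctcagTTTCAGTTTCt
Gbp2: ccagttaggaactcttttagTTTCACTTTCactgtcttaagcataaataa
Irgm1: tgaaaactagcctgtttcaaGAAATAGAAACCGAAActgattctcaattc
Igtp: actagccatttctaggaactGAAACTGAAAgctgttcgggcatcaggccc
Irgm2: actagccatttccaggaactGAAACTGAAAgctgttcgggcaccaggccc

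These stretches lie at chr12:26456543-26456592 (minus strand) for *Rsad2*, chr10:128270256-128270305 (plus) for *Stat2*, chr4:156200867-156200916 (minus) for *Isg15*, chr19:34640765-34640814 (plus) for *Ifit1*, chr3:142620584-142620633 (plus) for *Gbp2*, chr11:48871421-48871470 (minus) for *Irgm1*, chr11:58199502-58199551 (plus) for *Igtp* and chr11:58214893-58214942 (plus) for *Irgm2*. *Isg15* and *Irgm1* carry overlapping matches in 1 run, and the first of the 2 *Ifit1* matches begins 104 bases before the start. The stretches of *Igtp* and *Irgm2*, neighbouring genes, share 48 of 50 bases, and in *Igtp*, which shares 7.8% of its 75-base transcript windows with *Irgm2*, a match to the GAS core begins 45 bases and the ISRE core 34 bases before the start. *Stat2* carries its ISRE core 222 bases before the start, farther away than the other 7 genes shown. The *Oasl1* promoter held no match to these ISRE letters, which says only that the letters are not in this window. A match describes the letters and was not tested for binding.

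Levels of the members differed widely in these injured livers. *Ifitm3*, a membrane protein that restricts virus entry, had the highest mean over the 6 livers with 552 FPKM, followed by *Bst2* (tetherin), which holds budding viruses at the cell surface, with 246 FPKM and the GTPase *Iigp1* with 55.2 FPKM. Of the members, 9 lay between 10 and 100 FPKM, 19 between 1 and 10 FPKM, 5 between 0.5 and 1 FPKM and 6 under 0.5 FPKM. The 6 that were not tested for their low level are *Gbp4*, *Gbp5*, *Tgtp1*, *Ifi44*, *Mx1* and *Oas3*. The *Ifit*, *Oas* and *Mx* transcripts were scarce in both groups, with group means from 0.502 FPKM (*Ifit2*) to 2.12 FPKM (*Oas1a*) for the tested genes other than *Oasl1*. The immunity-related GTPases spread widely, with group means from 5.07 FPKM (*Irgm2*) to 77.7 FPKM (*Iigp1*) for the 4 tested, whereas *Tgtp1*, the other member of this family, was the least abundant of the 41 genes at a mean of 0.205 FPKM.

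Among the 35 tested members, 2 rose and 2 fell in the *med23*Δli livers. The same fit called 11.6% of all genes tested up and 9.48% down, so that the members as a whole were called in 11.4% of cases and all genes in 21.1%. These counts depended on single livers. Without *med23*Δli replicate 1, 2 or 3, 401, 487 and 578 genes were called up and 349, 442 and 412 down, with 0, 2 and 1 members up and 1, 0 and 0 down. Without control replicate 1, 2 or 3, 1125, 1046 and 1750 genes were called up and 811, 749 and 1429 down, with 2, 3 and 2 members up and 1, 2 and 6 down. The up-regulated members were *Rsad2* and *Oasl1*, and the down-regulated members were *Iigp1* and *Stat2*. With the further demand of a more than 2-fold change, 1 member was up-regulated (*Rsad2*; 4.45% of all genes) and 1 down-regulated (*Iigp1*; 3.45% of all genes). The values of the groups did not overlap for 3 members that were higher (23.3% of all genes) and 8 that were lower (20.4% of all genes) in *med23*Δli livers. The median log2 fold change over the 35 members was −0.10, beside 0.02 over all genes tested, with 12 positive and 23 negative values. For 23 of the 35, the 95% interval of the change lay inside 2-fold in either direction, whereas for the remainder a 2-fold change was not excluded by the interval.

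**Figure D1:**
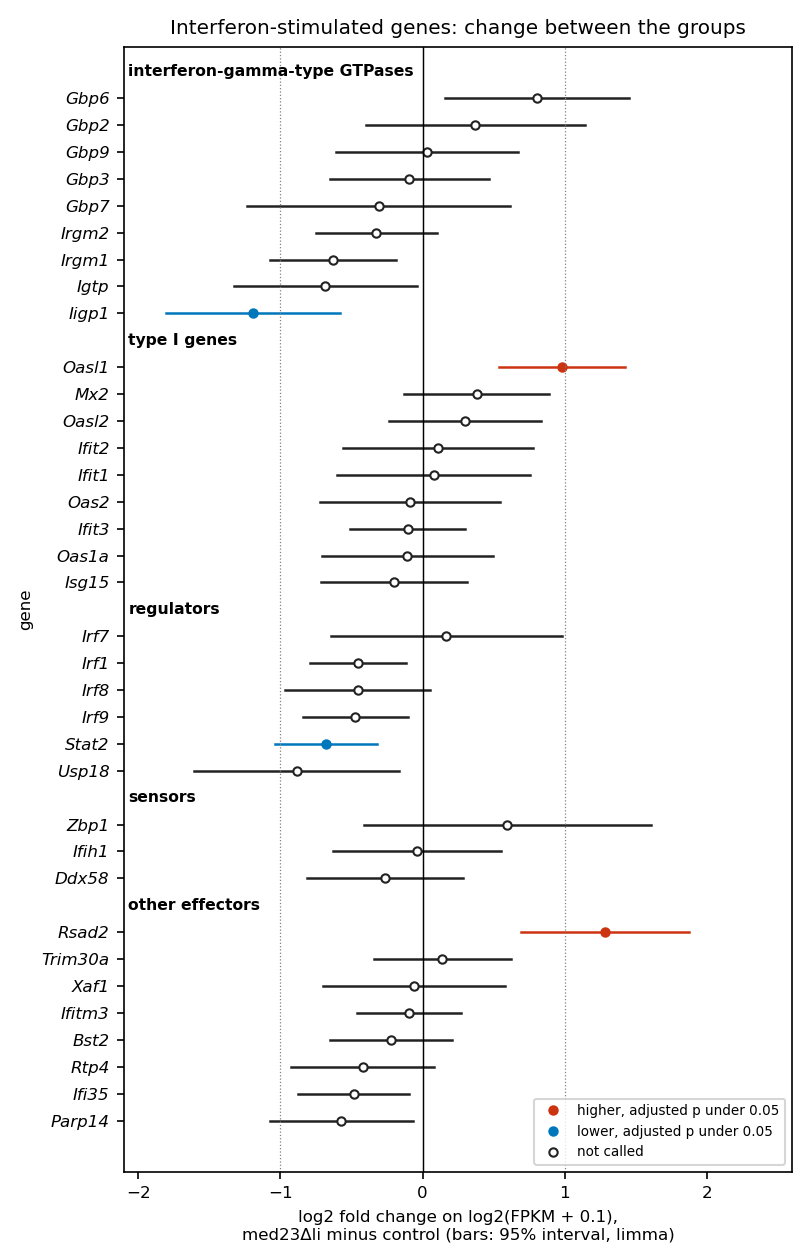
Log2 fold change (x axis, med23Δli minus control on the log2(FPKM + 0.1) scale, bars are 95% intervals from limma) of the 35 tested members by class, with dotted lines at a 2-fold change. Filled points mark the 4 called members: *Rsad2* and *Oasl1* to the right, *Iigp1* and *Stat2* to the left, and most other intervals cross 0.

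*Rsad2* encodes viperin, a radical-SAM enzyme that makes a chain-terminating nucleotide and limits virus replication. It was at 0.856, 0.835 and 1.52 FPKM in control replicates 1, 2 and 3 and at 3.02, 2.33 and 2.65 FPKM in *med23*Δli replicates 1, 2 and 3. All *med23*Δli livers were above all control livers. The means were 1.07 ± 0.392 and 2.67 ± 0.345 FPKM (SD, n = 3 each), which differed by 1.28 ± 0.26 on the log2 scale (SE; adjusted p = 0.0145 from limma; exact permutation p = 0.1). *Rsad2* (ENSMUSG00000020641.16) occupies 26442746 to 26456452 of chromosome 12, minus strand (GRCm38). Its call was lost without *med23*Δli replicate 1 (log2 fold change 1.19, adjusted p = 0.0664) and without *med23*Δli replicate 3 (1.28, adjusted p = 0.0560).

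*Oasl1* belongs to the OAS family but lacks its enzyme activity, and its protein limits the translation of *Irf7* mRNA. *Oasl1* was at 5.77, 3.72 and 4.71 FPKM in the control livers and at 10.9, 8.39 and 8.80 FPKM in the *med23*Δli livers, again without overlap. The means were 4.73 ± 1.02 and 9.35 ± 1.33 FPKM (SD, n = 3 each), for a log2 change of 0.98 ± 0.19 (SE; adjusted p = 0.0133 from limma). *Oasl1* (ENSMUSG00000041827.15) occupies 114923240 to 114937915 of chromosome 5, plus strand, next to *Oasl2*. Its call was lost without *med23*Δli replicate 1 (log2 fold change 0.87, adjusted p = 0.0623). *Oasl2*, which keeps the enzyme activity, was at 1.01 to 1.05 FPKM in the controls and 1.07 to 1.71 FPKM in the *med23*Δli livers, without overlap but with an adjusted p of 0.374 (limma).

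*Iigp1* encodes an immunity-related GTPase that loads onto parasite vacuoles. It was the most abundant GTPase of the list, at 79.2, 105 and 49.3 FPKM in the control livers and at 38.2, 28.4 and 31.5 FPKM in the *med23*Δli livers. The controls varied more than 2-fold among themselves, but every one of them was above every *med23*Δli liver. The means were 77.7 ± 27.7 and 32.7 ± 5.0 FPKM (SD, n = 3 each), for a log2 change of −1.19 ± 0.27 (SE; adjusted p = 0.0200 from limma). The call was lost without control replicate 1 (−1.14, adjusted p = 0.0567), without *med23*Δli replicate 2 (−1.10, adjusted p = 0.0732) and without *med23*Δli replicate 3 (−1.17, adjusted p = 0.0705).

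*Stat2* encodes the signal transducer of the type I response. *Stat2* was at 20.9, 15.02 and 16.2 FPKM in the control livers and at 10.7, 10.1 and 11.3 FPKM in the *med23*Δli livers, which were close to each other and below all controls. The means were 17.4 ± 3.11 and 10.7 ± 0.587 FPKM (SD, n = 3 each), for a log2 change of −0.68 ± 0.16 (SE; adjusted p = 0.0216 from limma). *Stat2* (ENSMUSG00000040033.16) occupies 128270559 to 128292849 of chromosome 10, plus strand. Leaving out any of the *med23*Δli livers raised the adjusted p to between 0.0616 and 0.0854, with log2 fold changes from −0.72 to −0.64.

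**Figure D2:**
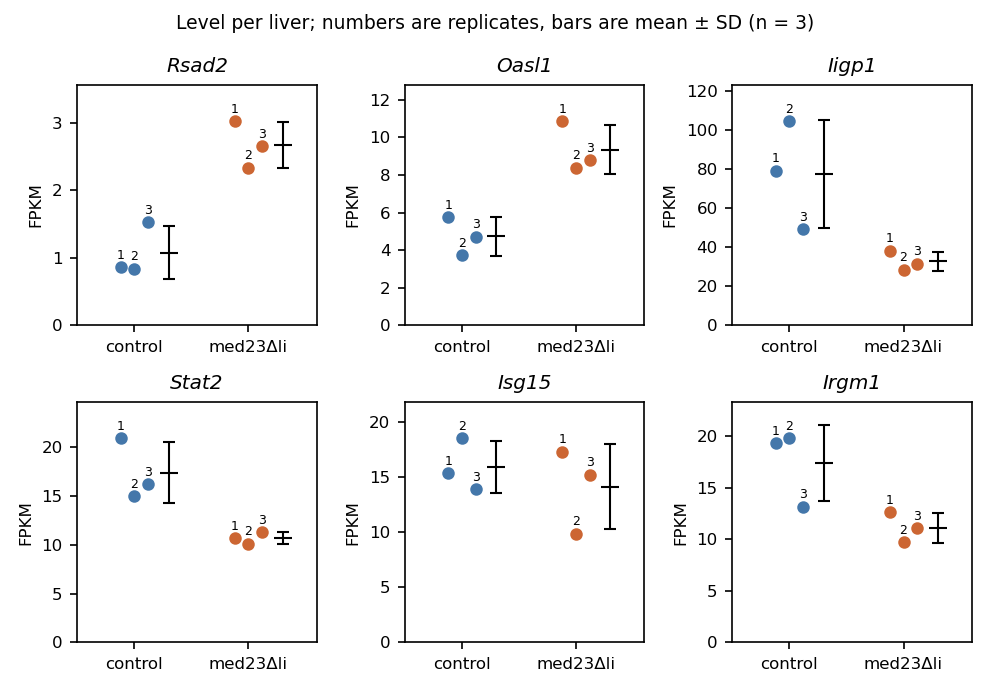
FPKM (y axes, linear and starting at 0) of 6 members in each liver, with replicate numbers at the points and the mean ± SD (n = 3) beside them. *Rsad2* and *Oasl1* are higher in every med23Δli liver, *Iigp1*, *Stat2* and *Irgm1* lower in every one, and the groups of *Isg15* overlap.

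Among the type I genes, 9 of 11 were tested, 1 was called up-regulated (*Oasl1*) and 0 down-regulated by limma, with 1 up and 0 down at an unadjusted p under 0.05. The call is 11.1% of those tested, near the 11.6% of all genes called up. The median log2 fold change of the 9 was 0.08, with 5 positive and 4 negative values, and 8 of the 9 had a 95% interval inside 2-fold. *Isg15*, a ubiquitin-like protein that is attached to viral and host proteins, was the most abundant of them and was at 15.3, 18.5 and 13.9 FPKM in the controls and 17.3, 9.86 and 15.2 FPKM in the *med23*Δli livers. The groups overlapped (log2 fold change −0.20, 95% interval −0.71 to 0.31, adjusted p = 0.542 from limma).
*Ifit1*, which binds viral RNA caps, was at 0.621, 0.864 and 0.815 FPKM in the controls and 1.14, 0.580 and 0.790 FPKM in the *med23*Δli livers (log2 fold change 0.08, adjusted p = 0.868 from limma). *Ifit3*, its partner, was at 1.46, 1.63 and 1.67 FPKM and 1.57, 1.40 and 1.44 FPKM (−0.10, 95% interval −0.51 to 0.30). For both, control and *med23*Δli livers were interleaved.
*Oas1a*, which makes the 2′-5′-linked oligoadenylates that activate RNase L, was at 2.22, 2.48 and 1.65 FPKM in the controls and 2.62, 1.40 and 1.95 FPKM in the *med23*Δli livers (−0.11, adjusted p = 0.793). *Mx1*, a dynamin-like antiviral GTPase, stayed under the filter with 0.178, 0.221 and 0.156 FPKM in the controls and 0.330, 0.156 and 0.239 FPKM in the *med23*Δli livers. *Oas1a* shares 47.6% of its 75-base windows with *Oas1g* and *Ifit3* shares 41.1% with *Ifit3b*, so that the split of reads between these copies is uncertain. *Ifit2* (0.425 to 0.694 FPKM), *Oas2* (0.590 to 1.04 FPKM) and *Mx2* (0.916 to 1.68 FPKM) overlapped as well, while *Oas3*, under the filter, was at 0.247 to 0.264 FPKM in the controls and 0.319 to 0.427 FPKM in the *med23*Δli livers.

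Of the interferon-gamma-type GTPases, 9 of 12 were tested, of which 1 (*Iigp1*) was called down-regulated and 0 up-regulated by limma. This is 11.1% of those tested, near the 9.48% of all genes called down. At an unadjusted p under 0.05, 3 were down and 1 up. The median log2 fold change of the 9 GTPases was −0.31, with 3 positive and 6 negative values. The values of both branches of the class are given separately. The 4 immunity-related GTPases tested all had negative log2 fold changes, from −1.19 to −0.33 with a median of −0.66, whereas the 5 guanylate-binding proteins tested lay between −0.31 and 0.80 with a median of 0.03 and had 0 calls (1 at an unadjusted p under 0.05, *Gbp6*).
*Irgm1*, a regulator of the other immunity-related GTPases, was at 19.4, 19.8 and 13.2 FPKM in the controls and 12.6, 9.70 and 11.1 FPKM in the *med23*Δli livers. The groups did not overlap, and the log2 fold change of −0.63 just missed the threshold (95% interval −1.07 to −0.19, adjusted p = 0.0524 from limma). *Irgm1* was called down-regulated with the filter at 1 FPKM (adjusted p = 0.0498), after quantile normalization (0.0465), with robust eBayes (0.0469) and without control replicate 3 (0.0105), where 3 GTPases were called down. *Igtp* (Irgm3) was at 14.6, 18.4 and 9.84 FPKM and 10.9, 6.11 and 9.44 FPKM, so that control replicate 3 was below *med23*Δli replicate 1 (−0.68, adjusted p = 0.115). *Irgm2* was at 5.54 to 7.40 FPKM in the controls and 4.03 to 5.70 FPKM in the *med23*Δli livers (−0.33, adjusted p = 0.232).
*Gbp2*, a guanylate-binding protein that coats bacteria and pathogen vacuoles, was at 1.02, 2.27 and 1.10 FPKM in the controls and 1.46, 2.46 and 1.62 FPKM in the *med23*Δli livers. The highest control exceeded 2 of the *med23*Δli livers (log2 fold change 0.37, 95% interval −0.40 to 1.14). *Gbp6* was at 0.779 to 1.31 FPKM in the controls and 1.27 to 2.15 FPKM in the *med23*Δli livers (0.80, adjusted p = 0.0758 from limma), but it shares 67.3% of its 75-base windows with other transcripts, so its own level is uncertain. *Gbp3* (1.19 to 2.09 FPKM over the 6 livers), *Gbp7* (0.389 to 1.21 FPKM) and *Gbp9* (0.427 to 0.591 FPKM) overlapped between the groups. *Gbp4*, *Gbp5* and *Tgtp1* were not tested. Their means were 0.392, 0.212 and 0.158 FPKM in the controls and 0.544, 0.407 and 0.251 FPKM in the *med23*Δli livers. Each mean was higher in the *med23*Δli livers, and the groups overlapped for each gene.

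The question of whether GTPases and type I genes moved apart was addressed by the medians of both classes. The median log2 fold change of the type I genes minus that of the GTPases was 0.39, where the SD of this difference between livers of a group was 0.28. Per liver, relative to the mean of the controls for each gene, the median of the type I genes was −0.02, 0.04 and 0.04 in the control livers and 0.41, −0.07 and −0.01 in the *med23*Δli livers. The median of the GTPases was 0.08, 0.32 and −0.29 in the control livers and −0.20, −0.51 and −0.14 in the *med23*Δli livers, so that the groups overlapped for both classes. The difference shrank to 0.04 without control replicate 1, to 0.16 without control replicate 2 and to 0.14 when all 41 members were kept without a filter, where the median of the 12 GTPases was −0.03. Without *med23*Δli replicate 1 the median of the type I genes was −0.13 and the difference 0.21. It was 0.47 without control replicate 3, 0.37 and 0.51 without *med23*Δli replicate 2 and 3, 0.22 with a pseudocount of 1 and 0.44 after quantile normalization. The SD between livers was not computed again for these choices. The median of the immunity-related GTPases was 0.13, 0.31 and −0.43 in the controls and −0.39, −0.99 and −0.59 in the *med23*Δli livers, with control replicate 3 among the *med23*Δli values.

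**Figure D3:**
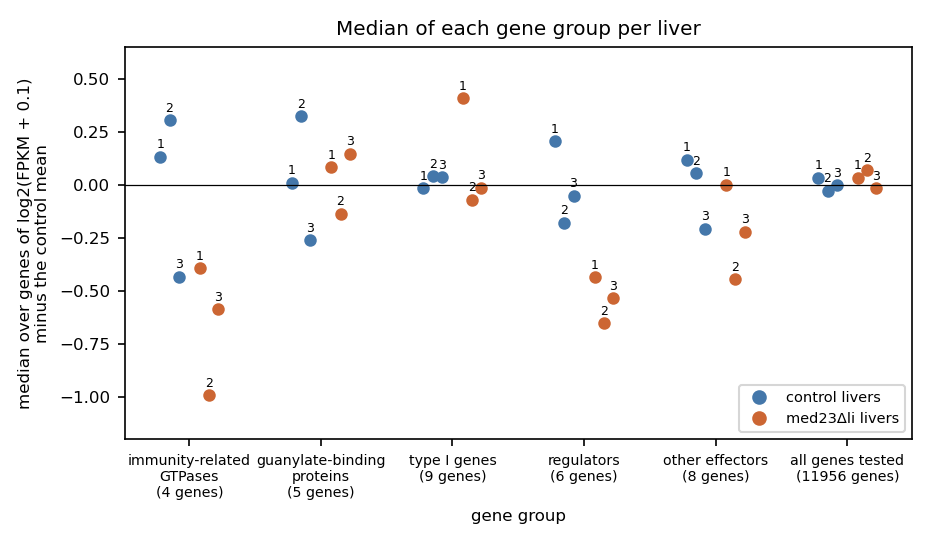
Median over the genes of each group (y axis, log2(FPKM + 0.1) minus the control mean of each gene) in each liver, with replicate numbers at the points. The regulators are the one group of members shown whose control and med23Δli livers do not overlap, and med23Δli replicate 2 is lowest of its group in each member group shown.

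Of the regulators, 6 of 6 were tested, *Stat2* was called down-regulated and 0 were called up-regulated by limma (4 down and 0 up at an unadjusted p under 0.05), and 5 had negative log2 fold changes with a median of −0.46. For 4 of the 6 the *med23*Δli livers were lower without overlap, as were 20.4% of all genes tested (9.48% of all genes were called down). *Irf9*, the DNA-binding partner of STAT2, was at 11.8 to 15.7 FPKM in the controls and 8.64 to 11.1 FPKM in the *med23*Δli livers (−0.47, adjusted p = 0.0686 from limma). *Irf1*, a transcription factor induced early by interferon gamma, was at 16.0, 13.0 and 13.1 FPKM in the controls and 9.96, 11.4 and 9.33 FPKM in the *med23*Δli livers (−0.45, adjusted p = 0.0613). *Usp18*, which removes ISG15 from proteins and blocks the type I receptor, was at 2.95 to 4.16 FPKM in the controls and 1.09 to 2.66 FPKM in the *med23*Δli livers (−0.89, adjusted p = 0.0781). These 3 genes were below all controls in every *med23*Δli liver but did not pass the test. *Irf1* passed it after median centring (adjusted p = 0.0416) and quantile normalization (0.0347), and *Irf9* after quantile normalization (0.0497).
*Irf7*, which amplifies the type I response, was at 12.5, 13.3 and 9.25 FPKM in the controls and 20.97, 7.26 and 14.3 FPKM in the *med23*Δli livers. Its lowest and highest values were both in the *med23*Δli group, and its log2 fold change of 0.17 had a 95% interval from −0.65 to 0.98. *Irf8*, a factor of the myeloid lineage, was at 3.93 to 6.82 FPKM and 3.22 to 3.96 FPKM (−0.46, adjusted p = 0.169). The median of the regulators per liver, as log2 difference from the control mean of each gene, was 0.21, −0.18 and −0.05 in the controls and −0.44, −0.65 and −0.54 in the *med23*Δli livers.

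The 3 sensors of foreign nucleic acid among the members, *Ddx58* (RIG-I), *Ifih1* (MDA5) and *Zbp1*, had 0 calls, 0 unadjusted p-values under 0.05 and adjusted p-values from 0.350 to 0.922 (limma). *Zbp1*, which triggers necroptosis, varied most, between 1.67 and 5.87 FPKM in the controls and 3.26 and 6.48 FPKM in the *med23*Δli livers. Among the 9 other effectors, 8 were tested, *Rsad2* was up-regulated and the other 7 did not pass the test. This is 12.5% of those tested, near the 11.6% of all genes called up. *Ifi35* was at 17.5 to 25.3 FPKM in the controls and 14.95 to 17.1 FPKM in the *med23*Δli livers (−0.48, adjusted p = 0.0756), and *Parp14*, an ADP-ribosyltransferase, at 2.04 to 3.07 FPKM and 1.47 to 1.96 FPKM (−0.57, adjusted p = 0.0965). Both were without overlap, and *Ifi35* shares 16.8% of its exon bases with the antisense gene *Gm11626*, whose reads cannot be told apart if strand was not used. The abundant *Ifitm3* (508 to 612 FPKM in the controls, 447 to 594 FPKM in the *med23*Δli livers) and *Bst2* (220 to 289 FPKM and 179.5 to 252 FPKM) overlapped, with log2 fold changes of −0.09 and −0.22 and 95% intervals inside 2-fold. *Rtp4*, *Xaf1* and *Trim30a* overlapped too, and *Ifi44* was under the filter with 0.238 to 0.758 FPKM.

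**Figure D4:**
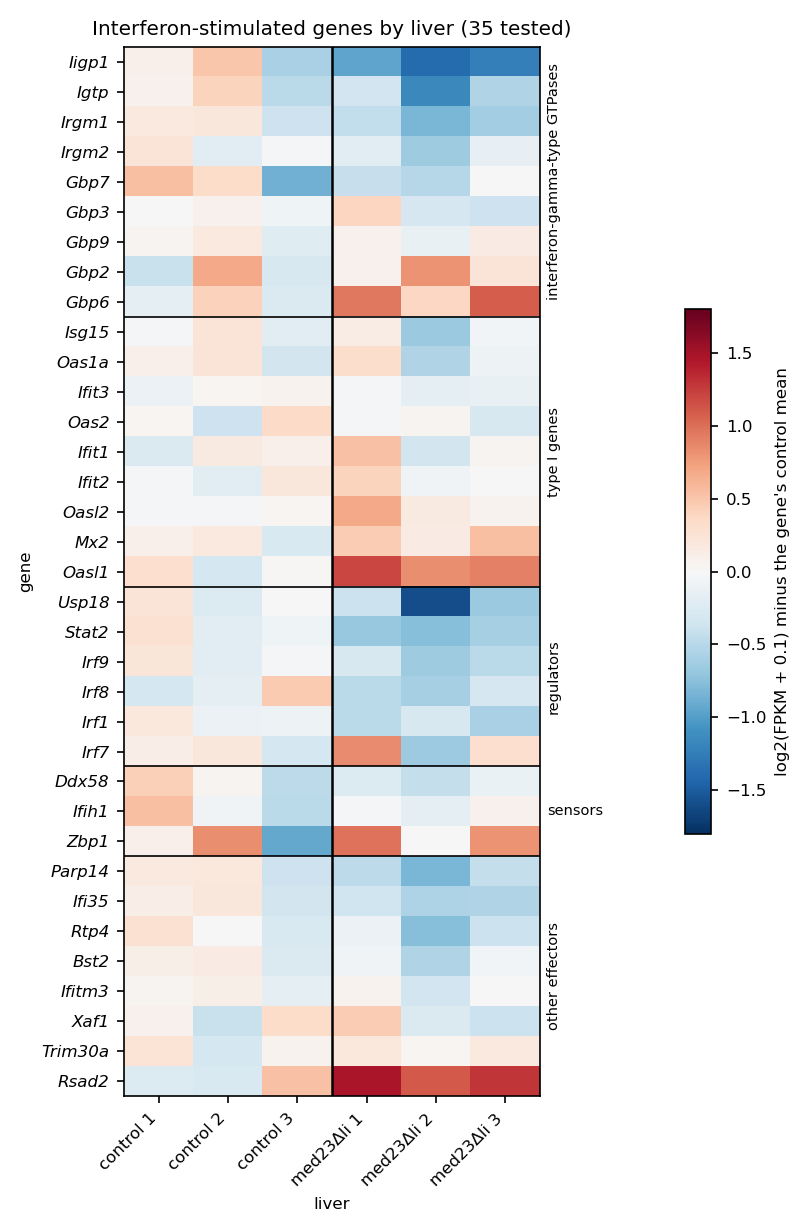
Level of the 35 tested members (rows, by class) in each liver (columns), as log2(FPKM + 0.1) minus the control mean of the gene, from blue (lower) to red (higher). The column of med23Δli replicate 2 is the lowest of its group for 29 of the 35 members, and control replicate 3 is the lowest control for 19.

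The members shared an order of livers within the groups that the genotype did not set. *med23*Δli replicate 2 was the lowest of its group for 29 of the 35 members (82.9%), compared with 24.2% of all genes tested, and for 7 of 9 type I genes and 7 of 9 GTPases. *med23*Δli replicate 1 was the highest of its group for 21 members (60%), compared with 32.3% of all genes. Among the controls, replicate 3 was the lowest for 19 members (54.3%; 35.8% of all genes). *med23*Δli replicate 2 is also the liver with the adipocyte transcripts, and the part of these transcripts in the lower values was not tested. Without this liver, *Rsad2* (log2 fold change 1.37, adjusted p = 0.0426 from limma) and *Oasl1* (1.05, adjusted p = 0.0393) remained up-regulated. The log2 fold changes of *Iigp1* and *Stat2* were −1.10 and −0.64, compared with −1.19 and −0.68 with all livers, but neither passed the test, so that 0 members were down-regulated, and 487 and 442 genes of the whole table were called up and down.

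In the pathway upstream of the members, none of the 9 interferon genes looked up reached the filter. Of these, *Ifna1*, *Ifna2*, *Ifna4*, *Ifne*, *Ifnl2* and *Ifnl3* were listed at 0 in all 6 livers, *Ifnb1* was listed at 0.121 FPKM in *med23*Δli replicate 1 and at 0 in the others, and *Ifng* and *Ifnk* did not exceed 0.0805 and 0.0574 FPKM. Of 6 receptor genes, 5 were tested, all with negative log2 fold changes, and 1 was down-regulated (20%, beside 9.48% of all genes tested). This was *Ifngr2*, the signalling chain of the interferon gamma receptor, with 18.5, 20.6 and 21.7 FPKM in the controls and 14.9, 15.6 and 14.5 FPKM in the *med23*Δli livers (−0.43 ± 0.12, SE; adjusted p = 0.0445 from limma). The *Ifngr2* call was close to the threshold and was lost without any one liver other than control replicate 1, with adjusted p-values from 0.0662 to 0.154. The ligand-binding chain *Ifngr1* was at 18.5 to 31.1 FPKM and 13.1 to 18.0 FPKM, without overlap (−0.68, adjusted p = 0.0555). *Ifngr1* was called down-regulated after median centring (adjusted p = 0.0495), after quantile normalization (0.0428), with robust eBayes (0.0489) and without control replicate 3 (0.0162). The type I receptor genes *Ifnar1* and *Ifnar2* had log2 fold changes of −0.21 and −0.08 and were not called.
Of the 4 signalling genes *Jak1*, *Jak2*, *Tyk2* and *Stat3*, *Tyk2* was up-regulated (25%, beside 11.6% of all genes tested). It was at 9.11 to 9.96 FPKM in the controls and 12.9 to 14.7 FPKM in the *med23*Δli livers (0.54 ± 0.12, SE, adjusted p = 0.0219 from limma). This call was lost without any one of the *med23*Δli livers (adjusted p from 0.0650 to 0.101). *Jak2*, the kinase of the interferon gamma receptor, was at 3.53 to 4.46 FPKM and 4.92 to 5.77 FPKM without overlap (0.47, adjusted p = 0.0609), and all 4 had positive log2 fold changes. Of 8 inhibitors of the pathway 0 were called, including *Socs1* with 1.07 to 3.52 FPKM in the controls and 0.481 to 1.52 FPKM in the *med23*Δli livers (adjusted p = 0.137 from limma), with 2 at an unadjusted p under 0.05 and a lowest adjusted p of 0.0781 (*Usp18*).

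Genes that sense nucleic acids lead to interferon production and stand before the ligands in the pathway. Of 12 genes in this list 9 were tested, 6 were down-regulated and 0 up-regulated by limma (the same counts at an unadjusted p under 0.05), with 9 of 9 negative log2 fold changes and a median of −0.66, beside 9.48% of all genes called down. The down-regulated genes were *Ticam1* (TRIF, the adaptor of TLR3), from 13.9 to 15.4 FPKM in the controls to 7.65 to 7.74 FPKM in the *med23*Δli livers (log2 fold change −0.89, adjusted p = 0.00427 from limma), *Irf3* (−0.66), *Irf5* (−1.19), *Tmem173* (STING, −0.71), *Mavs* (−0.56) and *Tlr3* (−0.94). *Irf3*, the transcription factor at the end of several of these routes, was at 43.6 to 47.7 FPKM and 27.4 to 30.1 FPKM. The call of *Ticam1* held without each liver in turn. *Irf5* was not called without *med23*Δli replicate 3 (adjusted p = 0.0567), *Irf3* not without *med23*Δli replicate 1 (0.0516) or 2 (0.0563), *Mavs* and *Tmem173* not without any one of the *med23*Δli livers (0.0567 to 0.0767), and *Tlr3* kept its call only without control replicate 3 (0.0772 to 0.136 without another liver). With no filter on low values, *Tlr3* was not called either (adjusted p = 0.0592). With the replicate number as a block in the fit, *Mavs*, *Tmem173* and *Tlr3* were not called (adjusted p = 0.0532, 0.0591 and 0.0912 from limma). Of 32 other interferon-stimulated genes, 27 were tested, with a median log2 fold change of −0.42. By limma, 12 were down and 0 up at an unadjusted p under 0.05. After adjustment, 5 were down-regulated (18.5%, beside 9.48% of all genes tested) and 0 up-regulated. These 5 were *Dtx3l* (a ubiquitin ligase, −0.92), *Trim21* (a cytosolic antibody receptor, −0.99), *Isg20* (an exonuclease, −1.15), *Lgals3bp* (a secreted glycoprotein, −0.87) and *Tap1* (the peptide transporter of class I antigen presentation, −0.95), of which *Dtx3l* held its call without each liver in turn. *Trim21* was not called without *med23*Δli replicate 2 or 3 (adjusted p = 0.0726 and 0.0681), *Isg20* not without control replicate 1 or 2 or *med23*Δli replicate 1 or 2 (0.0742 to 0.112), and *Lgals3bp* (0.0585 to 0.118) and *Tap1* (0.0599 to 0.140) were called in the fit lacking control replicate 3 but in no other of these fits. With no filter, *Isg20*, *Lgals3bp* and *Tap1* were not called (adjusted p = 0.0709, 0.0663 and 0.0835). With the replicate number as a block in the fit, *Isg20*, *Trim21*, *Lgals3bp* and *Tap1* were not called (adjusted p from 0.0577 to 0.0841). Of 3 interferon-inducible chemokines 2 were tested, and *Cxcl10* was up-regulated (log2 fold change 1.09, adjusted p = 0.00737 from limma). *Cxcl9* was at 3.07 to 3.29 FPKM and 2.77 to 2.91 FPKM (−0.14, adjusted p = 0.494), and *Cxcl11* was under the filter, with 0.345 to 1.17 FPKM in the controls and 0.179 to 0.289 FPKM in the *med23*Δli livers.

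**Figure D5:**
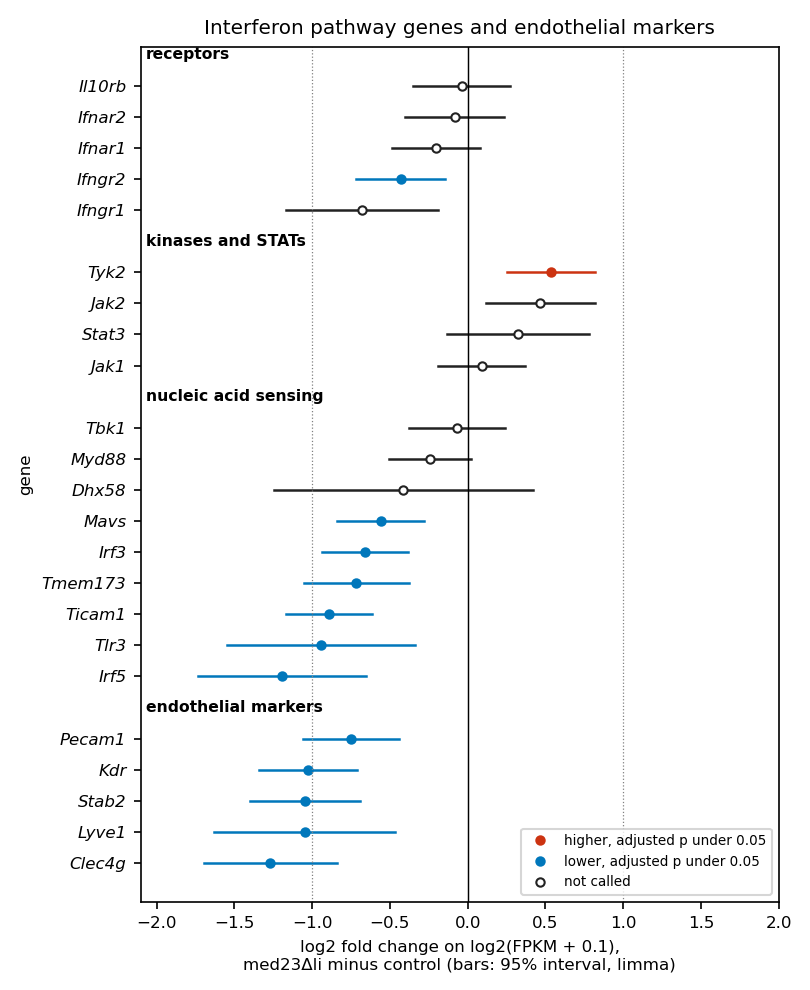
Log2 fold change (x axis, med23Δli minus control on the log2(FPKM + 0.1) scale, bars are 95% intervals from limma) of the receptors, kinases and STATs, sensing genes and endothelial markers tested. Filled points are called at an adjusted p under 0.05: *Tyk2* to the right, and *Ifngr2*, 6 sensing genes and 5 endothelial markers to the left.

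Markers of the cell types that could carry these transcripts were read from the same fit. Of the endothelial markers *Pecam1*, *Stab2*, *Lyve1*, *Clec4g* and *Kdr*, 5 of 5 were down-regulated, beside 9.48% of all genes tested. Their median log2 fold change was −1.05. Their summed level was 73.6 to 110 FPKM in the controls and 38.5 to 41.4 FPKM in the *med23*Δli livers, with none listed at 0. *Lyve1* was not called without control replicate 2 or *med23*Δli replicate 1 or 3 (adjusted p from 0.0618 to 0.0915) or with no filter (0.0539). Endothelial cells line the liver sinusoids and respond to interferon, and the part of their lower markers in the lower values of *Iigp1*, *Stat2* and the sensing genes was not tested. By limma, 0 of 7 hepatocyte markers, 0 of 6 Kupffer cell markers, 0 of 7 monocyte and macrophage markers and 0 of 4 neutrophil markers tested were called, with adjusted p-values of at least 0.0663. At an unadjusted p under 0.05, 4 hepatocyte, 2 Kupffer cell and 2 neutrophil markers were lower and 1 monocyte marker (*Ly6c2*) was higher in the *med23*Δli livers. The log2 fold changes were negative for 5 of 7 hepatocyte (median −0.50), 4 of 6 Kupffer cell (−0.18), 4 of 7 monocyte and macrophage (−0.17) and 4 of 4 neutrophil markers (−0.44), and their part in the lower values of the members was not tested. The 12 T and NK cell markers, of cells that make interferon gamma, were all under the filter and summed to 1.13 to 1.79 FPKM in the controls and 1.48 to 2.30 FPKM in the *med23*Δli livers, with *Nkg7*, *Gzma*, *Gzmb*, *Prf1*, *Klrb1c* and *Ncr1* listed at 0 in at least 1 liver. Of these, *Gzma* (granzyme A) was at 0 to 0.10 FPKM in the controls and 0.303 to 0.524 FPKM in the *med23*Δli livers, without overlap, and was called in the fit with no filter (log2 fold change 1.70, adjusted p = 0.0263 from limma). The 4 B cell markers were under the filter as well, of which *Ms4a1* (CD20) was at 0 to 0.0303 FPKM and 0.0873 to 0.138 FPKM and was called with no filter (0.82, adjusted p = 0.0335). The part of the cells they mark in the members' values was not tested. Of the dendritic and plasmacytoid dendritic cell markers 0 of 3 and 0 of 2 tested were called by limma (1 and 0 at an unadjusted p under 0.05). The 2 plasmacytoid markers tested were *Tcf4* and *Irf7*, which is itself a member, and *Siglech* and *Ccr9* were under the filter. Hepatocyte markers summed to between 19579 and 33350 FPKM, so that the labelled tissue was borne out by its markers in all 6 livers.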

How the data were processed

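Total RNA of 6 livers was sequenced by the authors as Illumina libraries. According to the study's methods and the submitters' processing notes, the authors checked reads with FastQC, aligned them to mm10 with TopHat and ran Cuffdiff; versions, annotation and use of strand are not given in the sources used here. The table deposited by the authors gives FPKM for each liver, which were used. Its columns of the authors' own comparison (group values, fold changes, p- and q-values) were not used. FPKM carry no counts, so no counting interval was given; the study's methods state a median read number, and the depth of each library is unknown. In the libraries 7628 to 9341 genes were listed at 0, and the 10 most abundant genes held 17.1% to 20.3% of the summed FPKM in the controls and 11.9% to 13.7% in the *med23*Δli livers.

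Values were analysed as log2(FPKM + 0.1) with limma 3.58.1 (lmFit, eBayes with a trend) in R 4.3.3, for the 11956 genes averaging 0.5 FPKM or more, with Benjamini-Hochberg adjustment over them. The script was tested on simulated data for 11956 genes, of which 200 were changed. The fit called 53 of 100 genes with a log2 change of 1 and 91 of 100 with a log2 change of 2. It also called 7 unchanged genes. A gene that did not pass the test can therefore still differ 2-fold. Exact permutation tests were two-sided. Values per liver were printed for called members and for *Isg15*, *Ifit1*, *Ifit3*, *Oas1a*, *Mx1*, *Irf1*, *Irf7*, *Gbp2*, *Igtp*, *Irgm1*, *Iigp1* and *Stat2* whatever their p, and for other members ranges; values per liver of the non-members *Ifngr2*, *Gbp10* and *Psmb9* were added after their values were seen. Other genes came from fixed lists of ligands, receptors, kinases, inhibitors, sensing genes, further interferon-stimulated genes, chemokines and cell type markers. The members and lists were chosen with earlier results of these data known. No set test was run. Some of the genes examined are left out here.

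Results were recomputed with a replicate block, with eBayes robust or lacking the trend, after median centring or quantile normalization, without the filter or with one at 1 FPKM, with pseudocounts of 1 or 0.01, under a rule of more than 2-fold change and without each of the 6 livers in turn. Positions, exon overlaps and windows of 75 bases shared between transcripts came from GENCODE mouse release M 21 (GRCm38), and promoter sequences from RefSeq (GRCm38.p6). Figures were drawn with matplotlib 3.10.9, and other steps ran in Python 3.11.15 with pandas 2.3.3, numpy 2.4.6 and scipy 1.17.1.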

Additional observations from a re-analysis of the deposited data

How the results depend on the processing

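All 4 member calls (*Rsad2*, *Oasl1*, *Iigp1*, *Stat2*) were kept with both other pseudocounts, no filter, the 1 FPKM filter, median centring, quantile normalization, robust eBayes, eBayes lacking the trend and the replicate block, and *Irgm1* was also called with the 1 FPKM filter, quantile normalization and robust eBayes, which gave 2 down-regulated GTPases each. *Irf1* was also called with median centring and quantile normalization, *Irf9* with quantile normalization, and *Ifngr1* with median centring, quantile normalization and robust eBayes. Quantile normalization gave 5 down-regulated members. With no filter the median of the GTPases was −0.032. With the more than 2-fold rule 532 genes were up-regulated and 412 down-regulated, with 1 member each way and 0 type I genes up-regulated. The replicate block left 809 up-regulated and 614 down-regulated genes. It ended the calls of *Ifngr2*, *Tyk2*, *Tlr3*, *Mavs*, *Tmem173*, *Isg20*, *Trim21*, *Lgals3bp* and *Tap1* (adjusted p from 0.0532 to 0.112). Lacking the trend, *Ifngr2*, *Lgals3bp* and *Tap1* were not called (0.0604, 0.05005 and 0.0593). Same-numbered livers did not deviate together (correlations −0.02, −0.05 and −0.12) and did not each correlate best with their own number. Deviations from the mean of 3 livers must sum to 0, so these correlations cannot show whether the numbers pair the samples. The main fit used no block. With each liver left out in turn, the genes called ranged from 401 to 1750 up and from 349 to 1429 down, the lowest without *med23*Δli replicate 1, where *Iigp1* alone of the members was called. Members ranged from 0 to 3 up and from 0 to 6 down, GTPases from 0 to 1 up and from 0 to 3 down, and type I genes from 0 to 1 up. Without control replicate 3, *Ifi35*, *Igtp*, *Irgm1* and *Parp14* were also called down, and without control replicate 2 *Gbp6* was called up. The median of the type I genes ranged from −0.13 to 0.20, that of the GTPases from −0.42 to −0.09 and the difference from 0.042 to 0.51. The sign of uncalled genes turned in these fits for *Isg15* (−0.36 to 0.037), *Ifit1* (−0.14 to 0.29), *Irf7* (−0.18 to 0.58), *Oas1a* (−0.32 to 0.11), *Oas2* (−0.27 to 0.087), *Ifih1* (−0.29 to 0.23), *Gbp3* (−0.34 to 0.043), *Gbp9* (−0.078 to 0.12), *Ifitm3* (−0.18 to 0.028), *Xaf1* (−0.32 to 0.10), *Trim30a* (−0.022 to 0.26), *Il10rb* (−0.094 to 0.034) and *Med23* (−0.22 to 0.017). The causes were not tested.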

Other observations

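*Gbp10*, a guanylate-binding protein outside the members, lay under the filter and was at 0.127, 0.0709 and 0.0434 FPKM in the controls and 0.758, 0.460 and 0.919 FPKM in the *med23*Δli livers. Without a filter its log2 fold change was 2.15 (adjusted p = 0.0134 from limma). *Gbp6*, the member that shares 40.4% of its 75-base windows with *Gbp10* and 61.7% with *Gm43302*, was also higher on average in the *med23*Δli livers, and how the reads of these copies were divided was not tested. Its neighbours *Gbp8* (0.281 to 0.444 FPKM in the controls, 0.490 to 0.641 FPKM in the *med23*Δli livers) and *Gbp11* were under the filter as well. The immunoproteasome subunit *Psmb9* was at 9.57, 18.8 and 6.40 FPKM in the controls and 6.195, 3.55 and 4.80 FPKM in the *med23*Δli livers (log2 fold change −1.13, adjusted p = 0.0658 from limma), with control replicate 2 highest, as for *Iigp1*, *Igtp* and *Tap1*.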
